A study of Mus musculus with 8 samples.

Results

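The genes of major histocompatibility complex (MHC) class I antigen presentation were followed in immortalized mouse dental papilla cells with and without Bmp2. The members are 10 genes named for their place in this pathway, out of 22609 gene symbols counted in each library. They are the heavy chains H2-K1 and H2-D1, the light chain B2m, the peptide transporter genes Tap1 and Tap2, the loading factor gene Tapbp, the immunoproteasome subunit genes Psmb8, Psmb9 and Psmb10, and the coactivator gene Nlrc5. They were chosen by their known roles, with earlier results of these data known.

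Both cell lines were immortalized cultures of dental papilla, the mesenchyme of the tooth germ that gives rise to odontoblasts and pulp. The iBmp2fx/fx line carried Bmp2 floxed/floxed alleles, and the iBmp2ko/ko line carried the Bmp2 KO genotype. Total RNA of each line gave 1 library at each of 4 culture times, 6, 24, 48 and 72 h, which makes 8 in all, with no sign in the labels that any dish was repeated. The libraries of 6, 48 and 72 h, the times of the study's methods, stood as 3 replicates per genotype in the tests, and the 24 h libraries are given beside them. Each genotype was 1 line, so a difference between the genotypes and a difference between 2 cell lines cannot be told apart, and the p-values measure only the spread between these libraries.

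Between 25890110 and 32415665 reads per library fell on genes. Bmp2 itself had 1 read in the iBmp2fx/fx library of 24 h and 0 in the other 7, so its transcripts gave no check of the labels. The libraries of 24 h stood apart as a pair. Their deviations from their genotypes' means had a correlation of -0.25 across 13121 genes. The pairs of 6, 48 and 72 h had correlations of 0.58, 0.29 and 0.80 in the same 8 libraries. A correlation of a pair cannot say which of its libraries is the odd one. For 64.9% of the tested genes, and for 7 of the 10 members, the 24 h library labelled iBmp2ko/ko lay nearer to the mean of the iBmp2fx/fx libraries than to that of the iBmp2ko/ko libraries. The iBmp2fx/fx library of 24 h was not compared in this way.

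In MHC class I presentation, the proteasome cuts cytosolic proteins into peptides, the TAP transporter made of TAP1 and TAP2 carries them into the endoplasmic reticulum, and tapasin, the product of Tapbp, holds the transporter beside empty heavy chains until a peptide is bound. The heavy chain leaves for the cell surface only in complex with beta-2 microglobulin and a peptide. In interferon-treated cells and in immune cells, PSMB8, PSMB9 and PSMB10 replace PSMB5, PSMB6 and PSMB7 as the catalytic subunits of the proteasome. NLRC5 is a coactivator of MHC class I promoters, and interferon-gamma is the classical inducer of the members as a group.

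The promoters of both heavy chain genes and of B2m are shown because their transcripts made up most of the members' reads, and because the textbook route to these genes runs through such elements. Promoter windows of 8 members were found in the RefSeq table, on GRCm38.p6. Tap2 and Nlrc5 were not among them. The 250 bases before the start of H2-K1 (chr17:34000348-34000597, minus strand), H2-D1 (chr17:35262844-35263093, plus strand) and B2m (chr2:122147437-122147686, plus strand) are given 5′ to 3′, with matches to an interferon response type motif and an NF-kappaB type motif in capitals.
H2-K1: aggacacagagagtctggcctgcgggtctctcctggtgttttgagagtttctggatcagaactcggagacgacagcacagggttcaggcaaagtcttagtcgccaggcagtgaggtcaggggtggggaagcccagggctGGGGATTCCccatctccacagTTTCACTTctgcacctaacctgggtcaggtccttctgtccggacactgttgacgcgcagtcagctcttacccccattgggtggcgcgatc
H2-D1: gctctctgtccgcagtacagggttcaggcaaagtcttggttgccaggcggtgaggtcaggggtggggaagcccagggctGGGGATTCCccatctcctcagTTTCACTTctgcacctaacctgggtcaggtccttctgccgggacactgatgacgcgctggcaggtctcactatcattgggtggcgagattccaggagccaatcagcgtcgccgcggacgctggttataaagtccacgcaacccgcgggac
B2m: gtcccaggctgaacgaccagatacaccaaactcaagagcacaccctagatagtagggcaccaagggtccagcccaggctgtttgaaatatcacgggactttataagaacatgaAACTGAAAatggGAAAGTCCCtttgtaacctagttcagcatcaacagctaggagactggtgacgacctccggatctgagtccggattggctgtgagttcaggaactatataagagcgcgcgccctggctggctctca

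The motifs searched were AANNGAAA for the interferon response type and GGGNNTTNC for the NF-kappaB type, searched on both strands from 250 bases before to 50 bases after the start, and their letters were chosen after these windows had been read. The 2 motifs did not overlap in these windows. The interferon response type was present in 17.4% and the NF-kappaB type in 17.1% of 9192 such windows of tested genes, and both together in 3.26%. Among the members' windows, H2-K1, H2-D1 and B2m held both, and the windows of Tap1, Tapbp, Psmb8, Psmb9 and Psmb10 held neither. The bases before the starts of Tap1 (chr17:34187306-34187555) and Psmb9 (chr17:34187331-34187580) are largely the same stretch on opposite strands. Their windows are thus not separate cases. These windows and distances depend on the annotated starts. The RefSeq starts lay 364 bases from the GENCODE M1 start for H2-D1, 434 for Psmb9, 474 for Psmb8 and 3579 for Tapbp, and nearer for the other 4. In H2-K1 the NF-kappaB type match began 111 bases before the start and the interferon response type match 90 bases before it. In H2-D1 the same pair began 171 and 150 bases before the start, and in B2m the matches began at 125 and 137 bases. The letters TATAAA began 26 bases before the start in H2-D1 but 35 bases after it in H2-K1. The distances in H2-K1 and H2-D1 thus cannot be compared without a common start. The best local alignment of the windows of H2-K1 and H2-D1 had 161 identical bases of 177. These matches describe the sequence and are not evidence of binding.

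In mm9, 7 of the members lie in the MHC on chromosome 17, between Tapbp (chr17:34052844-34066235, plus strand) and H2-D1 (chr17:35399675-35404444, plus strand). Between them, H2-K1 lies at chr17:34132962-34137278 on the minus strand, Psmb9 at chr17:34318932-34324709 on the minus strand, Tap1 at chr17:34324498-34334170, Psmb8 at chr17:34334666-34338399 and Tap2 at chr17:34340472-34353266, all 3 on the plus strand. B2m lies at chr2:121973422-121978819 on the plus strand. Nlrc5 (chr8:96996663-97051172, plus strand) and Psmb10 (chr8:108459628-108462292, minus strand) lie on chromosome 8. Psmb9 and Tap1 stand head to head and share 212 exonic bases on opposite strands, and since the strand setting of the counting is not given in the sources used here, reads from that overlap cannot be told apart. In GENCODE M1, Nlrc5 is typed as a lincRNA, and its counts in the deposited lncRNA table came to between 100.9% and 101.9% of those in the gene table.

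Alignments of reads with more than 1 place in the genome, between 41.3% and 49.6% of the counted records per library, were set aside in the counting. This bears on the heavy chains, whose coding sequences in mm9 shared 988 of 1128 aligned bases. Of all windows of 50 bases in their exons, 83.0% were unique to H2-K1 and 85.4% to H2-D1, against at least 97.5% for each of the other 8 members. The levels of H2-K1 and H2-D1 therefore rest on the part of each transcript that differs from its relatives. The haplotype of the cell lines is not stated, and reads of another haplotype would match the reference less well by an amount that was not tested.

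All 10 members were expressed and passed the filter on low counts, and their levels spanned a wide range. Per length, as RPKM (reads scaled to the library's total and to the length of the summed exons), B2m was highest, with 2051 ± 242 in the iBmp2fx/fx cells and 2979 ± 531 in the iBmp2ko/ko cells (SD, n = 3 each). H2-K1 followed with 496 and 590.2 RPKM, H2-D1 with 332 and 412, and Tapbp with 136 and 208. In the iBmp2fx/fx cells, Psmb10, Tap2, Tap1, Psmb8 and Nlrc5 came next at 19.7 to 23.4 RPKM, within their spread of each other. In the iBmp2ko/ko cells Nlrc5 was the lowest of these 5 and Psmb10 the highest, with 62.3 ± 26.9 RPKM. The order of these genes depended on the length used. Over the longest coding transcript, Tap1, Psmb8, Tap2 and Psmb10 had 38.8, 34.5, 25.5 and 23.4 RPKM in the iBmp2fx/fx cells. In the iBmp2ko/ko cells they had 62.4, 43.9, 23.6 and 62.3 RPKM, and Nlrc5 had no such transcript. Psmb9 was lowest in both lines, with 4.89 and 6.64 RPKM over 3660 summed exon bases. Counted over its longest coding transcript of 1351 bases it had 13.3 and 18.0 RPKM and was still the lowest of the 9 members with such a transcript. The lowest single count of any member was 327 reads, for Psmb9 in the iBmp2ko/ko library of 72 h (95% Poisson interval 293 to 364, for counting error only).

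Together the 10 genes took between 0.384% of the reads on genes, in the iBmp2fx/fx library of 72 h, and 0.83% in the iBmp2ko/ko library of 48 h. The iBmp2ko/ko library of 48 h was the highest of all 8 libraries for 8 of the 10 members, all but Tapbp and Psmb10, which were highest in the iBmp2ko/ko library of 6 h. The share of all genes highest in that library of 48 h was not counted, so this cannot be read as a trait of the members. The panels of CPM (the reads of a gene scaled to a common library total, with edgeR's TMM factors) show the iBmp2ko/ko levels of 48 h and the fall to 72 h.

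**Figure D1:**
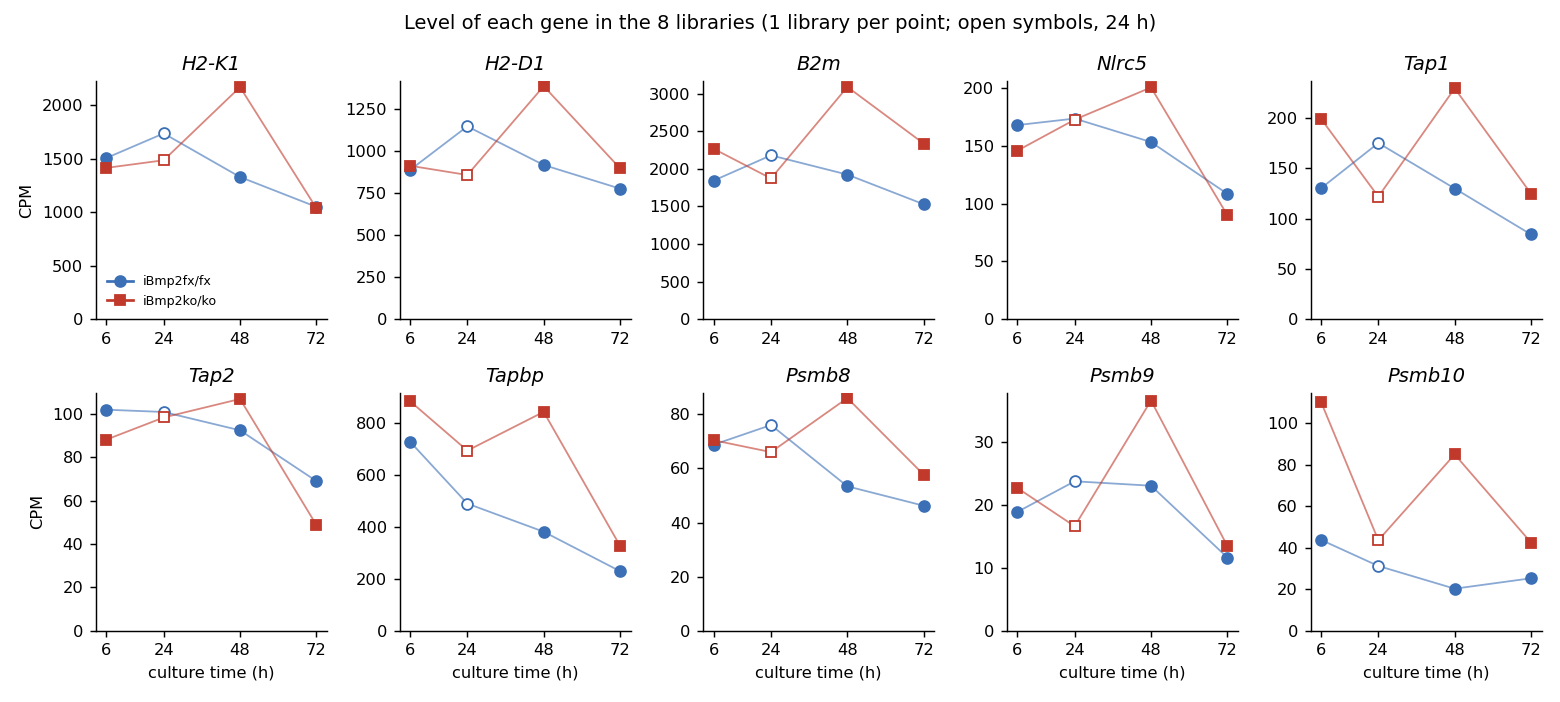
Level of each member in CPM (vertical axis, from 0) against culture time in h, with 1 library per point, circles for iBmp2fx/fx, squares for iBmp2ko/ko and open symbols for the 24 h libraries. In 8 panels the highest point is the iBmp2ko/ko library of 48 h, and at 24 h the square lies above the circle for Tapbp and Psmb10 only.

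The first comparison asked whether the members differed between the genotypes over the libraries of 6, 48 and 72 h. The iBmp2ko/ko library was the higher one at each of these times for 7 of the 10 members, all but H2-K1, Tap2 and Nlrc5, as it was for 31% of all genes. Of the 10 members, 9 had a higher fitted level in the iBmp2ko/ko cells, as did 53.6% of all genes, with a median log2 fold change of 0.40, against 0.03 over all 13121 genes tested. None passed an adjusted p of 0.05 in edgeR's quasi-likelihood test without a block, where 2.22% of all genes did. At an unadjusted p below 0.05, 1 member passed, Psmb10, where 14% of all genes did, and limma also called none at the adjusted limit, where 2.26% of all genes passed. DESeq2 called 1 member, Psmb10, where 6.65% of all genes were called. With culture time as a block, which compares the libraries of a shared time, 4 of the 10 members were called, all higher in the iBmp2ko/ko cells, where 11.3% of all genes were called higher. These were B2m, Tap1, Tapbp and Psmb10. With both libraries of any 1 culture time left out of the blocked fit, Tap1 and Psmb10 were called each time, Tapbp was called only with 6 h left out, and B2m was not called, where 6.55%, 8.09% and 5.16% of all genes were called higher without 6, 48 and 72 h. Over all 8 libraries edgeR called no member, without the block (0% of genes) or with it (0.337% of genes). At an unadjusted p below 0.05, these fits passed 1 member (Psmb10, 1336 of 13053 genes) and 2 members (Tapbp and Psmb10, 24.8% of genes). Without the block, the members' median log2 fold change over the 8 libraries was 0.20, and it was 0.38 for Tap1, 0.36 for B2m, 0.12 for H2-K1 and for H2-D1, 0.20 for Psmb8 and 0.21 for Psmb9.

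**Figure D2:**
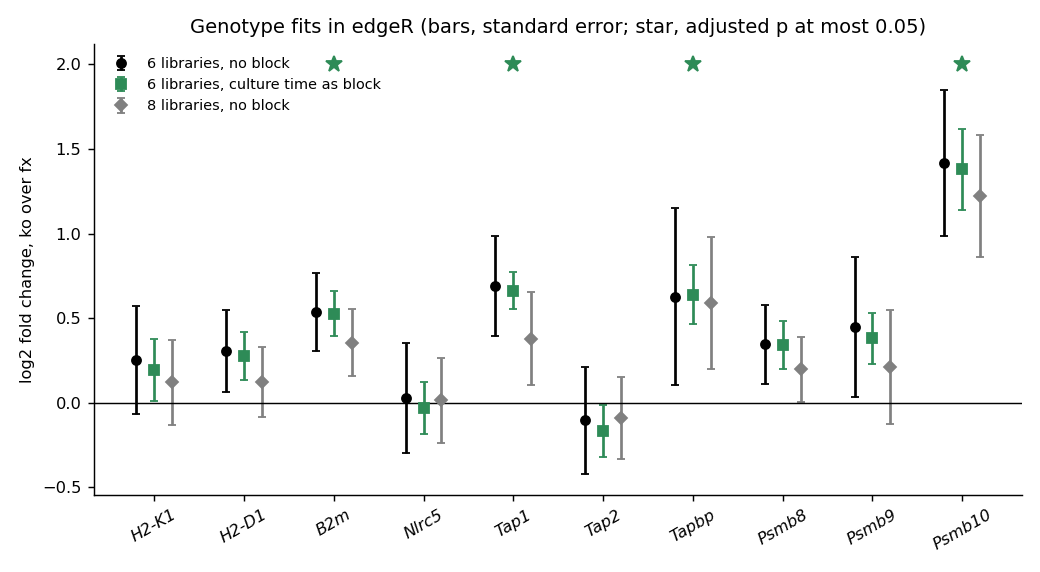
Fitted log2 fold change of each member, iBmp2ko/ko over iBmp2fx/fx, with bars for the standard error, in 3 edgeR fits. Psmb10 lies above 1 in all 3 fits, Tap2 and Nlrc5 lie near 0, and stars mark B2m, Tap1, Tapbp and Psmb10, called with culture time as block.

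Psmb10, the immunoproteasome subunit that takes the place of PSMB7, had the widest fitted difference between the genotypes among the members. It had 43.8, 20.3 and 25.3 CPM in the iBmp2fx/fx libraries of 6, 48 and 72 h and 110.1, 84.9 and 42.5 CPM in the iBmp2ko/ko libraries. At each of these times the iBmp2ko/ko library was the higher one, but the lowest iBmp2ko/ko level, at 72 h, lay just under the highest iBmp2fx/fx level, at 6 h. The means were 29.8 ± 12.4 CPM in the iBmp2fx/fx cells and 79.2 ± 34.2 CPM in the iBmp2ko/ko cells (SD, n = 3 each). Its log2 fold change was 1.42 (SE 0.43, adjusted p = 0.198) without the block and 1.38 (SE 0.24, adjusted p = 0.00722) with it, in edgeR. It was also the only member past a limit on size, a change of more than 1 on the log2 scale at an unadjusted p below 0.05, which 3.31% of all genes passed in this direction. It passed that limit in every fit tried. Without the iBmp2ko/ko library of 72 h it was called at the adjusted limit also without the block (adjusted p = 0.0455 in edgeR, where 2.86% of all genes were called).

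The other immunoproteasome subunits had smaller differences. Psmb8, the counterpart of PSMB5, had 68.8, 53.4 and 46.2 CPM in the iBmp2fx/fx libraries of 6, 48 and 72 h and 70.4, 86.0 and 57.7 CPM in the iBmp2ko/ko libraries. Psmb9, the counterpart of PSMB6, had 18.9, 23.1 and 11.7 CPM without the deletion and 22.7, 36.7 and 13.5 CPM with it. For both, the levels of the genotypes overlapped, and most of the difference came at 48 h. The log2 fold changes were 0.35 (SE 0.23, adjusted p = 0.588) and 0.45 (SE 0.41, adjusted p = 0.718) in edgeR, and the block called neither (adjusted p = 0.122 and 0.108). Without the iBmp2ko/ko library of 48 h they were 0.18 for Psmb8 and 0.015 for Psmb9.

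Among the transporter and loading genes, Tap1 and Tapbp were higher in the iBmp2ko/ko library at each of the 3 times and Tap2 was not. Tap1, the first chain of the peptide transporter, had 130.1, 129.8 and 84.1 CPM in the iBmp2fx/fx libraries of 6, 48 and 72 h and 199, 229 and 125 CPM in the iBmp2ko/ko libraries. Only the iBmp2ko/ko level of 72 h lay below an iBmp2fx/fx level, in the libraries of 6 and 48 h. Its log2 fold change was 0.69 (SE 0.29, adjusted p = 0.358) without the block and 0.66 (SE 0.11, adjusted p = 0.00601) with it, in edgeR. Tap2, the second chain, had 102, 92.5 and 69.1 CPM without the deletion and 88.2, 107 and 48.8 CPM with it, and its log2 fold change was -0.11 (SE 0.32, adjusted p = 0.926) in edgeR. Tap2 was lower in the iBmp2ko/ko library at 6 and 72 h and higher at 48 h.

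Tapbp, which encodes tapasin, had 729.7, 382 and 229.9 CPM in the iBmp2fx/fx libraries of 6, 48 and 72 h and 886, 845 and 328 CPM in the iBmp2ko/ko libraries. The SD within each genotype, 256 and 311 CPM (n = 3 each), was wider than the gap between the means of 447 and 686 CPM, and the level fell with culture time in both. The log2 fold change was 0.63 (SE 0.52, adjusted p = 0.676) without the block and 0.64 (SE 0.18, adjusted p = 0.0363) with it, in edgeR. Its difference was 1.14 on the log2 scale at 48 h, against 0.28 at 6 h and 0.51 at 72 h.

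B2m, the light chain shared by all class I molecules, was the only member whose 3 iBmp2ko/ko levels all lay above the 3 iBmp2fx/fx levels, as did 9.92% of all genes. It had 1843, 1922 and 1528 CPM in the iBmp2fx/fx libraries of 6, 48 and 72 h and 2264, 3088 and 2335 CPM in the iBmp2ko/ko libraries. The means were 1764 ± 209 CPM in the iBmp2fx/fx cells and 2562 ± 457 CPM in the iBmp2ko/ko cells (SD, n = 3 each). Its log2 fold change was 0.54 (SE 0.23, adjusted p = 0.358) without the block and 0.53 (SE 0.13, adjusted p = 0.0274) with it, in edgeR. With the 24 h libraries the levels overlapped, and so did those of every other member (2.26% of all genes had all 4 iBmp2ko/ko libraries on top).

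The heavy chains had smaller fold changes than their light chain. H2-K1 had 1506, 1328 and 1049 CPM in the iBmp2fx/fx libraries of 6, 48 and 72 h and 1413, 2168 and 1037 CPM in the iBmp2ko/ko libraries. The genotypes had nearly the same level of H2-K1 at 6 and 72 h and differed 1.63-fold at 48 h. H2-D1 had 888, 917 and 776 CPM without the deletion and 913, 1386 and 897 CPM with it. It showed the same single high library, and its iBmp2ko/ko level of 48 h stood far from the other 3 iBmp2ko/ko levels. The log2 fold changes were 0.25 (SE 0.32, adjusted p = 0.804) for H2-K1 and 0.31 (SE 0.24, adjusted p = 0.661) for H2-D1 in edgeR, and the block called neither (adjusted p = 0.469 and 0.198). The sign for H2-K1 turned when the iBmp2ko/ko library of 48 h was left out, to a log2 fold change of -0.085, and that of H2-D1 was then 0.063.

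Nlrc5, the class I coactivator, had 168, 154 and 109 CPM in the iBmp2fx/fx libraries of 6, 48 and 72 h and 146, 201 and 90.2 CPM in the iBmp2ko/ko libraries. The levels overlapped, and the iBmp2ko/ko library was higher only at 48 h. Its log2 fold change was 0.028 (SE 0.33, adjusted p = 0.985 in edgeR) and changed sign with the setting, for example to -0.032 with the block.

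The difference between the genotypes was not alike at the 4 culture times, with 1 library each and so no test within a time. At 48 h the iBmp2ko/ko library was the higher one for all 10 members, where 50.3% of all genes were higher, with a median difference of 0.69 on the log2 scale against 0.00 over all genes. At that time 8 of the 10, all but Tap2 and Nlrc5, were more than 1.5-fold higher, against 11.6% of all genes. At 6 h, 2 members were more than 1.5-fold higher, Tap1 and Psmb10 (12.9% of all genes), and at 72 h, 2 were, B2m and Psmb10 (12.6%). The median differences were 0.15 at 6 h and 0.26 at 72 h, against -0.0068 and 0.073 over all genes. For Psmb10 the fold was 2.52 at 6 h, 4.19 at 48 h and 1.68 at 72 h.

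At 24 h the order was turned for most members. This direction rests on the labels of the 24 h libraries, and whether these were exchanged was not tested. The library labelled iBmp2ko/ko was higher for 2 of the 10, Tapbp and Psmb10 (52.6% of all genes were higher), with a median difference of -0.21, and none was 1.5-fold higher (9.85% of all genes were). Tap1 had 175 and 122 CPM in the 24 h libraries, iBmp2fx/fx first, B2m had 2178 and 1871 CPM and H2-K1 had 1735 and 1484 CPM. For Tapbp they were 491 and 695 CPM and for Psmb10 31.2 and 43.6 CPM. By the labels, these 2 were thus higher in the iBmp2ko/ko library at all 4 times, as 18.4% of all genes were. With the 24 h labels exchanged, these 2 would be lower in the iBmp2ko/ko library at that time. In the iBmp2fx/fx line the 24 h level was the highest for Tap1, B2m, H2-K1, H2-D1, Psmb8, Psmb9 and Nlrc5. The 6 h level was the highest for Tap2, Tapbp and Psmb10. The part of a high iBmp2fx/fx library in the order at 24 h was not tested.

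**Figure D3:**
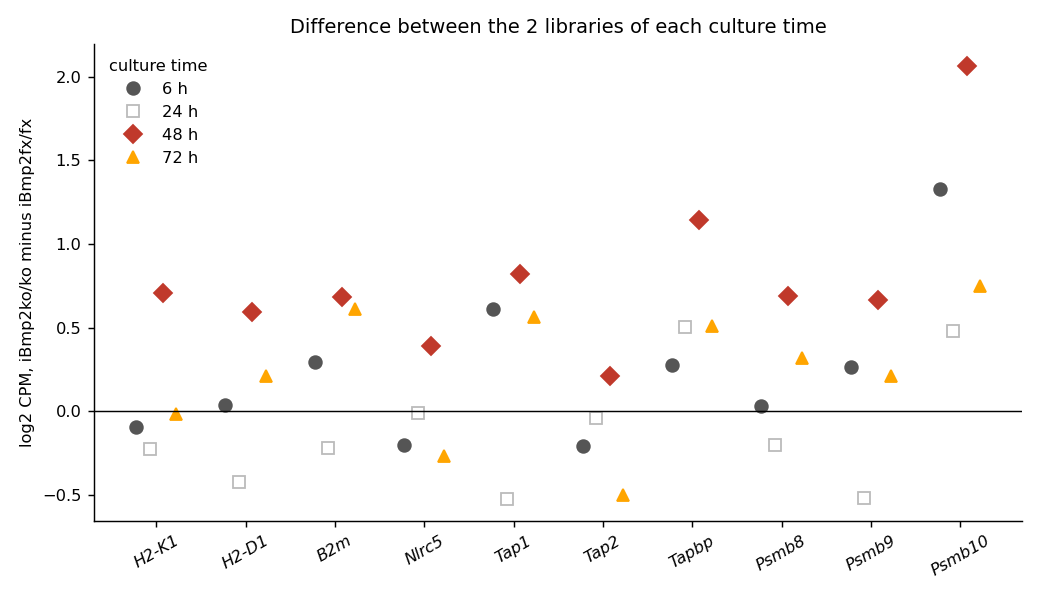
Difference in log2 CPM between the iBmp2ko/ko and the iBmp2fx/fx library of each culture time, for each member, with 1 library per genotype and time and open squares for 24 h. All 10 diamonds of 48 h lie above 0, from 0.21 for Tap2 to 2.07 for Psmb10, and 8 of the 10 squares of 24 h lie below 0.

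The next comparison followed the members over culture time. From 48 to 72 h the level fell in the iBmp2ko/ko libraries for all 10 members (50.9% of all genes) and in the iBmp2fx/fx libraries for 9, all but Psmb10 (52.9%). Tapbp was 3.17-fold lower at 72 h than at 6 h in the iBmp2fx/fx cells and 2.70-fold lower in the iBmp2ko/ko cells, the widest falls among the members in both lines. Psmb10 was 1.73-fold and 2.59-fold lower. More than 1.5-fold lower at 72 h than at 6 h were 5 members in the iBmp2fx/fx cells (21.1% of all genes) and 6 in the iBmp2ko/ko cells (22.5%). B2m and H2-D1 were at nearly the same level at both times in the iBmp2ko/ko cells, where their levels of 72 h were 1.03 and 0.983 times those of 6 h.

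In the test of a common slope, no member and no gene passed an adjusted p of 0.05 in edgeR (0% of genes). At an unadjusted p below 0.05, 2 members passed, Tapbp and Psmb10, where 21.1% of all genes did. The slope of Tapbp was -0.34 (SE 0.12, adjusted p = 0.206) per doubling of culture time and that of Psmb10 -0.28 (SE 0.085, adjusted p = 0.199), in edgeR. Without the iBmp2ko/ko library of 48 h, the slope of Tapbp was -0.40 and was called (adjusted p = 0.0429 in edgeR, where 1.47% of all genes were called). The interaction of genotype and culture time was called for no member in edgeR (0% of genes), and none passed an unadjusted p below 0.05 (0.48% of genes did). A slope cannot describe a peak at 48 h, so that shape was not tested.

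Ratios of partner subunits were compared within each library, which removes what both partners share. They are ratios of CPM, not per length, and 6 were compared, with exact two-sided permutation tests on their logarithms, which take no account of culture time and cannot go below p = 0.1 with 3 libraries against 3. The ratio of Tap1 to Tap2, whose products form the transporter together, was 1.28, 1.40 and 1.22 in the iBmp2fx/fx cells and 2.26, 2.14 and 2.55 in the iBmp2ko/ko cells, and the groups did not overlap (exact permutation p = 0.1, adjusted 0.3). At 24 h it was 1.73 and 1.24, in the other order, and over all 8 libraries the exact p was 0.114.

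The ratio of Psmb10 to Psmb7, the immunoproteasome subunit over the one it replaces, was 0.294, 0.153 and 0.122 in the iBmp2fx/fx cells and 0.813, 0.804 and 0.211 in the iBmp2ko/ko cells at the same times. It was higher in the iBmp2ko/ko library at each time, including 24 h as labelled (0.212 and 0.294), but the groups overlapped (exact permutation p = 0.2, adjusted 0.4). The ratio of Psmb8 to Psmb5 was 1.68, 1.49 and 1.22 in the iBmp2fx/fx cells and 1.27, 2.19 and 1.14 in the iBmp2ko/ko cells, with exact p = 1. That of Psmb9 to Psmb6 was 0.14, 0.208 and 0.0776 in the iBmp2fx/fx cells and 0.153, 0.374 and 0.093 in the iBmp2ko/ko cells, with exact p = 0.6. The groups overlapped for both ratios. The ratio of Psmb9 to Psmb6 was higher in the iBmp2ko/ko library at each of 6, 48 and 72 h and lower at 24 h (0.209 and 0.127), and that of Psmb8 to Psmb5 was higher at 48 h alone. Between the immunoproteasome subunits themselves, the ratio of Psmb10 to Psmb8 was 0.636, 0.379 and 0.547 in the iBmp2fx/fx cells and 1.56, 0.987 and 0.736 in the iBmp2ko/ko cells, with no overlap (exact p = 0.1, adjusted 0.3). Over all 8 libraries it did not overlap either (exact p = 0.0286, the smallest that 4 against 4 allow, adjusted 0.171). The ratio of H2-K1 to H2-D1 overlapped (exact p = 0.7).

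**Figure D4:**
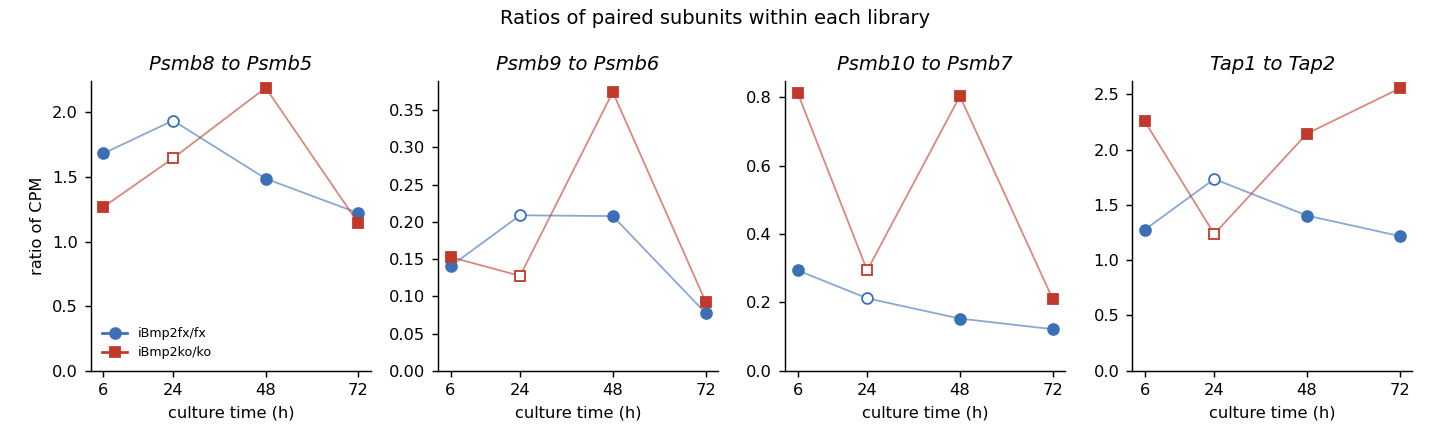
Ratios of CPM of partner genes within each library (vertical axes, from 0) against culture time in h, circles for iBmp2fx/fx, squares for iBmp2ko/ko and open symbols for 24 h. The squares of Psmb10 to Psmb7 lie above the circles at all 4 times, and those of Tap1 to Tap2 at 6, 48 and 72 h.

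The rest of the pathway was read from lists of genes chosen by function, with edgeR's calls given without and with the block. In these lists the counts of calls are to be read against 2.22% of all genes called without the block and 22.7% with it, and those at an unadjusted p below 0.05 against 14% and 37.8%. Where no fit is named, counts at an unadjusted p are those of edgeR without the block. Of the constitutive catalytic subunits Psmb5, Psmb6 and Psmb7, none was called with or without the block, by DESeq2 or by limma. None passed an unadjusted p below 0.05 without the block, and Psmb5 did with it (unadjusted p = 0.0272 in edgeR, adjusted over all genes 0.088). Psmb5, Psmb6 and Psmb7 had log2 fold changes of 0.34, -0.023 and -0.16. Of 11 other tested subunits of the 20S core, none was called in either fit or by DESeq2 or limma. None passed an unadjusted p below 0.05 without the block, and 2 did with it, Psma5 and Psmb4, and the median log2 fold change without the block was -0.017. The most abundant of these, Psmb4, Psmb1 and Psma1, had log2 fold changes of -0.24, 0.06 and -0.12. Apart from Psmb8, Psmb9 and Psmb10, the subunits of the core ran from -0.36 to 0.34.

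Of 9 genes of the PA28 and PA200 activators and of proteasome assembly, edgeR called none without the block and 2 with it, Psme1 and Psme2, both higher. These 2 also passed an unadjusted p below 0.05 without the block, and DESeq2 and limma called none. They encode the alpha and beta chains of PA28, which opens the core and is known to be induced by interferon-gamma. Psme1 had 78.6, 52.1 and 46.3 CPM in the iBmp2fx/fx libraries of 6, 48 and 72 h and 134, 102 and 68.1 CPM in the iBmp2ko/ko libraries, and Psme2 had 19.0, 14.8 and 14.6 CPM without the deletion and 28.3, 22.1 and 22.1 CPM with it. The 3 levels of Psme2 with the deletion all lay above the 3 without it. Their log2 fold changes were 0.76 (SE 0.12, adjusted p = 0.0057) and 0.58 (SE 0.13, adjusted p = 0.0164) in edgeR with the block. Psme3, Psme4 and the assembly factor gene Pomp, the most abundant of the list, had log2 fold changes of -0.076, 0.0094 and -0.017.

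Of 12 chaperones and trimming peptidases, none was called without the block, by DESeq2 or by limma. None passed an unadjusted p below 0.05 in edgeR without the block. The endoplasmic reticulum chaperones Calr, Pdia3 and Canx, which hold class I heavy chains during loading, had log2 fold changes of 0.25, 0.073 and -0.14. With the block 1 was called, Lnpep, an aminopeptidase of endosomes, which was lower (-1.25 (SE 0.33, adjusted p = 0.0321) in edgeR).

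Of 35 other class I heavy chain and class I-like genes, 32 were in the table and 15 passed the filter, and 13 had at most 3 reads in every library. None was called without the block or by limma, 3 passed an unadjusted p below 0.05 (H2-Q6, H2-Q8 and H2-T24) and DESeq2 called H2-T24. With the block, H2-T23, the ligand of NKG2 receptors known as Qa-1, and H2-T24 were called higher, and H2-Q6 and H2-Q8 were called lower. H2-T23 had 63.5, 38.7 and 13.6 CPM in the iBmp2fx/fx libraries of 6, 48 and 72 h and 115, 142 and 34.0 CPM in the iBmp2ko/ko libraries, and H2-Q6 had 66.7, 75.8 and 52.3 CPM without the deletion and 23.8, 56.7 and 25.4 CPM with it. Their blocked log2 fold changes were 1.35 (SE 0.19, adjusted p = 0.00292) and -0.98 (SE 0.20, adjusted p = 0.0123) in edgeR, and those of H2-T24 and H2-Q8 were 1.63 and -0.91. Of the windows of 50 bases in these genes, 67.2% were unique for H2-T23, 62.6% for H2-Q6 and 59.6% for H2-Q8, so their counts are less certain than those of the members, and 95.6% were unique for H2-T24. Fcgrt, the neonatal Fc receptor and the most abundant of this list, had a log2 fold change of 0.28.

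The interferon receptors and the JAK, STAT and IRF factors below them were read as a list of 18 genes, of which 16 were tested. None was called without the block or by limma, 6 passed an unadjusted p below 0.05, and DESeq2 called 1, Irf8, which was lower. With the block, 5 were called higher, Ifngr1, Stat2, Irf1, Irf7 and Irf9, and 2 lower, Jak2 and Irf8, where 11.3% of all genes were called higher and 11.4% lower. Stat2, a transcription factor of the type I interferon response, had 278, 162 and 74.9 CPM in the iBmp2fx/fx libraries of 6, 48 and 72 h and 535, 624 and 192 CPM in the iBmp2ko/ko libraries. The iBmp2ko/ko library was higher at each of these times, but its level of 72 h lay below the iBmp2fx/fx level of 6 h. The 24 h libraries had 253 and 277 CPM. Its log2 fold change was 1.40 (SE 0.58, adjusted p = 0.34) without the block and 1.41 (SE 0.19, adjusted p = 0.00239) with it, in edgeR. Irf1, which binds the interferon response elements of class I promoters, had 90.1, 78.9 and 77.8 CPM without the deletion and 148, 126 and 91.6 CPM with it, and its blocked log2 fold change was 0.54 (SE 0.14, adjusted p = 0.0283) in edgeR. Jak1 and Irf7, with Stat2 the most abundant of the list, had log2 fold changes of -0.33 and 1.53 without the block. Ifng itself had 0 reads in all 8 libraries.

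Of 15 factors of MHC promoters, the RFX, NF-Y, CREB and NF-kappaB families among them, none was called without the block or by limma, 2 passed an unadjusted p below 0.05 (Atf1 and Nfkb2) and DESeq2 called Nfkb2. With the block, Nfkb2 and Rela, both subunits of NF-kappaB, were called higher, with log2 fold changes of 0.63 and 0.40, and Atf1, Crebbp and Ep300 lower. Ep300, a histone acetyltransferase, and Nfkb1 were the most abundant with Nfkb2, and had log2 fold changes of -0.59 and -0.34 without the block.

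Of 12 MHC class II genes, whose products present peptides to helper T cells, 6 were tested, and H2-Eb1, a beta chain, was called lower without the block, with 3.51, 4.77 and 3.63 CPM without the deletion and 0.753, 0.843 and 0.661 CPM with it (log2 fold change -2.39 (SE 0.32, adjusted p = 0.0165) in edgeR). Also without the block, DESeq2 called H2-Ab1 and H2-Eb1, and limma called H2-Eb1. With the block 4 of the class II genes were called lower, H2-Ab1, H2-Eb1, H2-DMa and H2-DMb1. Cd74, the invariant chain and the most abundant of them, had 67.7, 29.4 and 21.5 CPM without the deletion and 62.7, 73.3 and 25.5 CPM with it and was not called. Over all 8 libraries H2-Eb1 was not called (adjusted p = 0.483 in edgeR).

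**Figure D5:**
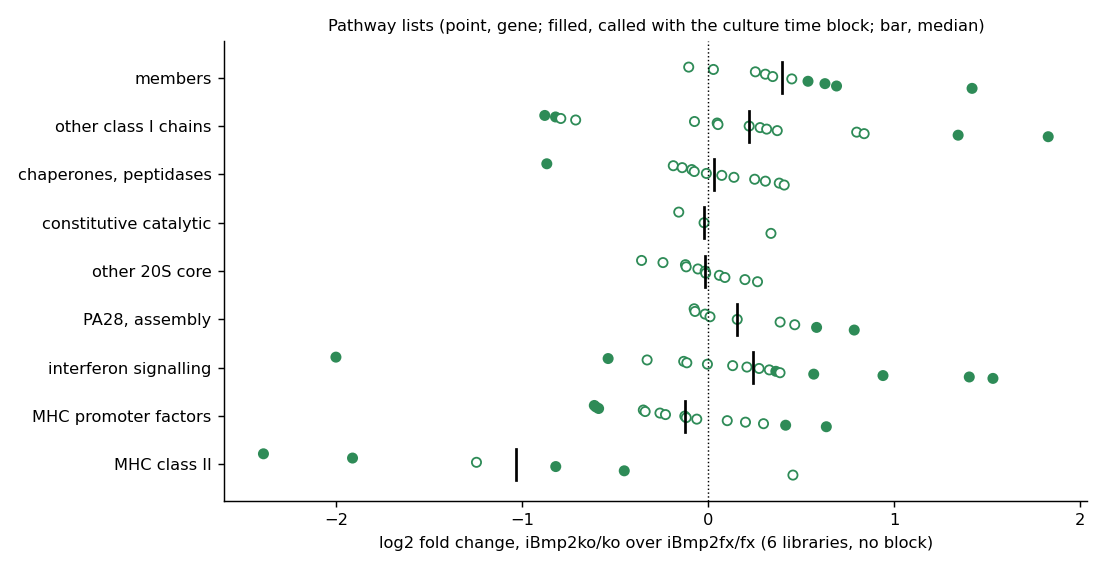
Log2 fold change of each tested gene, iBmp2ko/ko over iBmp2fx/fx in the 6 libraries without the block, by list, with filled points for genes called with culture time as block and bars for medians. The members have a median of 0.40, the other 20S core subunits lie near 0, and the class II genes have a median of -1.03.

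In bulk RNA, fewer cells of a type and less RNA per cell cannot be told apart, and cells of the immune system carry many of these transcripts. Of 9 leukocyte markers, 5 had at most 3 reads in every library, among them Ptprc, Itgam and Cd3e, and Emr1 had 0 in all 8. The summed level of the 9 was 4.41 to 14.6 CPM in the iBmp2fx/fx libraries and 3.17 to 3.89 CPM in the iBmp2ko/ko libraries of 6, 48 and 72 h, most of it Cd68. Among the latter 3 libraries it was highest at 48 h, and the 14.6 CPM were those of the iBmp2fx/fx library of 48 h. With the block, Cd68 and Csf1r were called lower (log2 fold changes of -1.25 and -1.64). Csf1r, a macrophage receptor, had 1.00, 1.86 and 1.05 CPM without the deletion and 0.229, 0.583 and 0.454 CPM with it. The labelled tissue was also checked. Of 13 dental mesenchyme markers 11 were tested, and Col1a1, Col1a2 and Vim were the most abundant, with log2 fold changes of 0.32, 0.58 and 0.72. Thy1, a surface marker of mesenchymal cells, was called higher (1.17 (SE 0.19, adjusted p = 0.0297) in edgeR without the block). With the block, Col1a2, Vim, Pdgfrb and Thy1 were called higher and Pdgfra and Msx1 lower, with log2 fold changes of -0.52 for Pdgfra and -0.80 for Msx1, and DESeq2 called Thy1 and Msx1. Without the block, 6 of the 11 had log2 fold changes above 0. The odontoblast gene Dspp had at most 3 reads in every library. Of 5 endothelial and 6 epithelial markers, edgeR called none without the block, where 2 endothelial and 1 epithelial marker passed an unadjusted p below 0.05, and DESeq2 and limma called none. With the block, Tek was called higher and Kdr and Krt14 lower, with log2 fold changes of 1.53, -1.30 and -1.45. The summed levels of these markers were at most 5.55 and 1.82 CPM in any library. The part of these differences in the members' levels was not tested.

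The members' neighbours on the chromosomes were counted as well. Between the first and last member on chromosome 17, the median log2 fold change over 63 other tested genes was 0.086, with 1 called without the block and 13 with it, 7 of them higher (over all genes 2.22%, 22.7% and 11.3%). Within 250000 bases of Psmb10, 24 other tested genes had a median of 0.20, with 0 called without the block and 2 with it, both higher. The highest of them, Ctrl, was chosen after its values were seen. It encodes a chymotrypsin-like protease, starts 1866 bases beyond the end of Psmb10 on the same strand and had 8 to 53 reads per library, with a blocked log2 fold change of 1.53 (SE 0.43, adjusted p = 0.0398 in edgeR).

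Outside the pathway, the genes whose profile over the 8 libraries was most like the members' mean were Slc43a3, Mgat3, BC006779, Hscb and Pcdhga11. The measure was the root mean square difference of centred log2 CPM, which was 0.104 to 0.137 for these 5, against a median of 0.46 over 10535 candidate genes. For the members themselves it ran from 0.131 for Psmb8 and 0.142 for H2-K1 to 0.376 for Tapbp and 0.566 for Psmb10, which was less like the mean than the median gene was.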

How the data were processed

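Total RNA of both cell lines was sequenced in 8 libraries as single reads of 50 bases per the labels. The authors aligned the reads to mm9 with TopHat2 2.0.8b after CASAVA 1.8.2, per the submitters' processing notes, and deposited raw counts from HTSeq for each gene symbol and lncRNA symbol, with no normalization and no pooling. Annotation and strand setting are not given in the sources used here. Depth was 25890110 to 32415665 reads on genes per library. The summary counters of HTSeq stayed out of library sizes: alignments of reads with several places made up 41.3% to 49.6%, reads on no gene 8.22% to 12.5% and ambiguous reads 0.439% to 0.532% of the counted records, in which a read with several places can appear more than once. The design text gives 8 h where labels and methods give 6 h. The methods speak of paired reads where the labels give single reads, and the windows of 50 bases follow the labels.

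Counts were tested in edgeR 4.0.16 (R 4.3.3) with TMM factors, filterByExpr (at least 10 counts, 15 in total), the quasi-likelihood test and Benjamini-Hochberg adjustment over all genes that passed. The genotype fit used the 6 libraries of 6, 48 and 72 h with no block. The labels pair libraries by culture time, and the deviations of each such pair from the genotype means correlated at 0.51 to 0.82 over the 6 libraries (mean -0.32 between other times), so values with culture time as a block are given beside the results. The slope fit held genotype and log2 of time, and the interaction fit both and their product. Alternatives were DESeq2 1.42.0, limma 3.58.1 with log2 CPM at an offset of 0.5, RLE size factors, all 8 libraries, 2 other filters, time in hours, and leaving out each library. The fits without the 24 h library labelled iBmp2ko/ko, the blocked fits without 1 culture time, the slope and interaction fits without each library and the ratios of partner genes were added after seeing the data. The fits were also run on simulated counts in which the changed genes were known. These had the same dispersion for all genes, and any shift with culture time was shared by both genotypes. This was a check of the code, and error rates in the real data were not tested.

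Positions, exons and unique windows of 50 bases came from GENCODE M1 and the mm9 genome. GENCODE held 95.7% of the gene symbols. Promoter windows came from RefSeq (GRCm38.p6). RPKM was computed here from counts, TMM-scaled library sizes and summed exon lengths. Python 3.11.15, numpy 2.4.6, pandas 2.3.3, scipy 1.17.1, Biopython 1.88 and matplotlib 3.10.9 were used.

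The members and the pathway lists were chosen with earlier results of these data known. The text names the 10 members, in each pathway list the genes called without the block and the 3 of highest mean CPM, and the 5 genes with the nearest profiles among those with at least 5 CPM on average. Ctrl, the cell type markers with values and genes called only with the block, by DESeq2 or at an unadjusted p were named after their values were seen. Knockout was not checked by Bmp2, which had at most 1 read. Some genes of these lists are not reported here.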

Additional observations from a re-analysis of the deposited data

Results flagged for a closer look

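Within the 4 libraries of a genotype, 1 of 32 groups of member or member ratio values held a library far from the rest, where chance gives about 1 in 20. It was H2-D1 in the iBmp2ko/ko cells, where the 48 h library lay above the other 3. Its gap to the nearest of them was 0.871 of the whole range, above Dixon's 95% critical value for 4 libraries. The cause was not tested.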

How the results depend on the processing

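Culture time as the replicate block raised the genes called between genotypes from 291 to 2981 and the members called from 0 to 4. With both libraries of 6, 48 or 72 h left out of the blocked fit, 1835, 2567 and 1557 genes and 3, 2 and 2 members were called. All 8 libraries gave 0 genes without the block and 44 with it, and no member higher in every iBmp2ko/ko library, where the 6 libraries gave 1. DESeq2 called 873 genes and 1 member, the filter of 10 counts in every library 145 genes, and the 7 libraries without the 24 h library labelled iBmp2ko/ko 483 genes. limma, RLE factors and no filter gave 296, 293 and 336. The log2 fold change of Nlrc5 was -0.032 with the block, -0.023 with the block over 8 libraries, -0.033 in limma, -0.059 over the 7 libraries and -0.26 with the block without 48 h, where that of H2-K1 was -0.075. With time in hours, the slopes of H2-D1 and B2m were -0.0010 and -0.0013 and the interactions of Tap1 and Tap2 -0.0011 and -0.0033 per h. In each case the cause was not tested.

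Without 1 library at a time, the genes called between genotypes ranged from 9 (iBmp2ko/ko 48 h left out) to 383 (iBmp2ko/ko 72 h left out), the members called from 0 to 1 in the genotype fit and from 0 to 1 in the slope fit (where the genes called ranged from 0 to 196), and the log2 fold changes of H2-K1 from -0.085 to 0.46, of Tap2 from -0.36 to 0.15, of Nlrc5 from -0.28 to 0.27, of H2-D1 from 0.063 to 0.41, of Psmb8 from 0.18 to 0.50, of Psmb9 from 0.015 to 0.73 and of Tapbp from 0.31 to 1.15. The slopes ranged from -0.16 to 0.0044 for H2-K1, from -0.057 to 0.057 for H2-D1, from -0.060 to 0.043 for B2m and from -0.14 to 0.042 for Psmb9. The interaction slopes of all 10 members changed sign: from -1.81 to 0.53 for H2-K1, -1.15 to 0.42 for H2-D1, -0.76 to 0.57 for B2m, -1.5 to 0.92 for Tap1, -1.93 to 0.56 for Tap2, -2.03 to 0.96 for Tapbp, -0.95 to 0.28 for Psmb8, -2.50 to 1.61 for Psmb9, -1.56 to 0.14 for Psmb10 and -1.96 to 0.75 for Nlrc5. The lowest interaction slope of each member came without the iBmp2ko/ko library of 6 h. The highest came without the iBmp2fx/fx library of 6 h, except for Psmb10. A line without its 6 h library has only 48 and 72 h, a short span of log2 time, which makes these slopes wide. Adjusted p over all genotype fits ranged from 0.00372 to 0.579 for Psmb10, 0.00601 to 0.675 for Tap1, 0.0274 to 0.721 for B2m and 0.0332 to 0.947 for Tapbp.

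With 1 library per genotype and time, the peak at 48 h has no replicate, and the 24 h libraries bear on every value over 8 libraries. Depth limits Psmb9 most, whose lowest count of 327 reads has a 95% Poisson interval of 293 to 364.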
